A study of Bos taurus with 12 samples.

Results

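The genes described here are the cytochrome P450 genes of families CYP1, CYP2, CYP3 and CYP4 in the liver of newborn Holstein calves. They were chosen by a rule on the name, with earlier results of these data known. The rule took every counted gene whose bovine RefSeq symbol begins with CYP1, CYP2, CYP3 or CYP4 and continues with a letter. This gave 36 of the 30336 gene identifiers. Liver was sampled by puncture biopsy at 4 d of age from heifer calves of cows in 2 dietary groups. CON cows received the basal close-up diet during the last 28 d of pregnancy, with 15.3% of crude protein and 1.47 Mcal per kg of dry matter and without supplemental Met. MET cows received that same diet plus Met protected from rumen degradation by ethyl cellulose. After birth each calf was given the first colostrum of its own dam, and otherwise the calves of both groups were fed and managed alike. The groups thus differ by the diet of the dam, whose colostrum was the first feed. Each diet had 6 RNA-seq libraries, and the genes were compared to see whether maternal Met was followed by a different P450 repertoire in the calf.

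Cytochromes P450 of these families are heme enzymes of the endoplasmic reticulum, where they insert an oxygen atom into lipophilic substrates with electrons passed on by P450 oxidoreductase and, for some reactions, cytochrome b5. Families CYP1 to CYP3 are known mainly for the oxidation of foreign compounds, steroids and arachidonic acid, and family CYP4 for the hydroxylation of fatty acids at the end of the chain. In the adult liver most are made by hepatocytes around the central vein, and many are under the control of receptors that sense foreign compounds or fatty acids, such as AHR for CYP1A, NR1I3 for CYP2B, NR1I2 for CYP3A and PPARA for CYP4A.

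Libraries held 8277789 to 10397604 counted reads. The libraries CON 1 and CON 4 differed by little more than counting noise (chi-square per gene of 1.33), as did MET 1 and MET 3 (1.24), while the other 64 pairs of libraries ranged from 25.1 to 133. Both pairs carry separate labels and were kept as 12 libraries in the edgeR quasi-likelihood fit that follows the study's method. Each pair was counted as 1 sample, leaving 5 CON and 5 MET samples, in every mean, SD and exact test and in a second edgeR fit. Values of the second fit stand beside each call of the first and wherever else it is named, and other fitted values are from the 12 libraries. The spread among the 12 libraries is too small where a pair is 1 sample. The study describes a calf for each library, while the labels number the samples without naming an animal, so p-values measure the spread between these samples. The 8 hepatocyte markers summed to 159810 to 210480 CPM (reads of a gene scaled to a common library total) in CON and 129410 to 191650 in MET, with 5 of 8 log2 fold changes below 0. The 1 called was APOB, lower in MET (log2 fold change −0.38, edgeR quasi-likelihood FDR of 0.0859, and 0.189 over the 10 samples). ALB differed more but was not called, with 62110 ± 13379 CPM in CON and 39381 ± 8746 in MET (SD, n = 5). Its log2 fold change was −0.65 (edgeR FDR of 0.107, and 0.238 over the 10 samples), and 3 of the 8 markers lay above 0. As to other tissues, none of the 6 skin and muscle markers of the needle track exceeded 2 reads in a library (ACTA1 and CKM had 0), and the summed erythroid markers ranged from 7.57 to 959 CPM in CON and from 57.0 to 459 in MET. Of the other cell type markers, C1QB of Kupffer cells was higher in MET (log2 fold change 0.39, edgeR quasi-likelihood FDR of 0.0855, and 0.213 over the 10 samples) and LUM of fibroblasts was lower (−0.70, FDR of 0.0985, and 0.211 over the 10 samples). Of tested Kupffer markers 6 of 6 lay above 0, and of stellate and fibroblast markers 5 of 5 lay below 0. Lymphocyte markers lay above 0 in 4 of 4 tested, endothelial ones in 2 of 5 and cholangiocyte ones in 1 of 3, with 0 called. Over all tested genes 50.4% had a log2 fold change below 0, 2.32% were called lower and 2.09% higher. Their part in the P450 values was not tested, and in bulk tissue fewer cells of a type and less RNA per cell cannot be told apart.

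In the edgeR fit over the 12 libraries, 3 of 26 tested genes were called by diet, all of CYP2C, where 4.41% of all genes were called. Over the 10 samples the same test called 0 of the 26 and 0.0% of all genes. The genes CYP2E1, CYP3A76 and CYP2C23 carried most of the reads. A small set led by CYP2B6, CYP2C282, CYP4A22 and CYP2A13 differed widely from calf to calf within a diet.

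Of the 36 genes, 34 had at least 1 read and 26 had enough reads to be tested. The pair CYP2B39 and CYP2F1 had 0 reads in every library, which at 3 reads allows up to 0.289 to 0.362 CPM depending on the library. The other 8 untested genes were CYP1B1, CYP2C87, CYP2C88, CYP2S1, CYP2W1, CYP4B1, CYP4F22 and CYP4X1, none of which exceeded 20 reads in a library. Several of these are known mainly from tissues other than liver, such as CYP2F1 and CYP4B1 from lung and CYP4F22 from skin. Reads that matched more than 1 place in the genome were left uncounted by the authors, so the level of a gene with a close copy, as in CYP2C, CYP3A and CYP4A, may be understated. Read sharing through overlapping exons touched 1 gene of the set, CYP3A28, over 27 of its 1703 exon bases.

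Levels were compared between genes as CPM per kilobase of exon, averaged over the 10 samples. CYP2E1, the enzyme that oxidizes ethanol, acetone and other small molecules, came first at 1031 ± 530.1 (SD, n = 10), followed by CYP3A76, a member of the subfamily that handles steroids and most drugs, at 825 ± 222. CYP2C23, whose rat counterpart converts arachidonic acid to epoxides, was the third at 767 ± 139. These 3 genes together took 55.9 to 75.3% of the reads on the set in each library. CYP1A2, an oxidizer of aromatic amines, followed at 309 ± 99.9 and the fatty acid hydroxylase CYP4A11 at 177 ± 39.9. Then came CYP2C89 (108 ± 62.0), CYP3A28 (90.3 ± 29.5), CYP3A24 (87.8 ± 25.8), CYP4A59 (80.4 ± 16.6) and CYP2D43 (41.0 ± 17.7), each in CPM per kilobase. Among neighbors in this order, only CYP2C23 and CYP1A2 had ranges of samples that did not overlap, with CYP2C23 above in 10 of 10 samples. CYP2E1 was above CYP3A76 in 7 of 10 samples and CYP3A76 above CYP2C23 in 5 of 10, so the order of the first 3 is not settled by these samples. The other 16 tested genes lay below CYP2D43, from 35.3 for CYP4V2 down to 0.791 for CYP2J30.

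**Figure D1:**
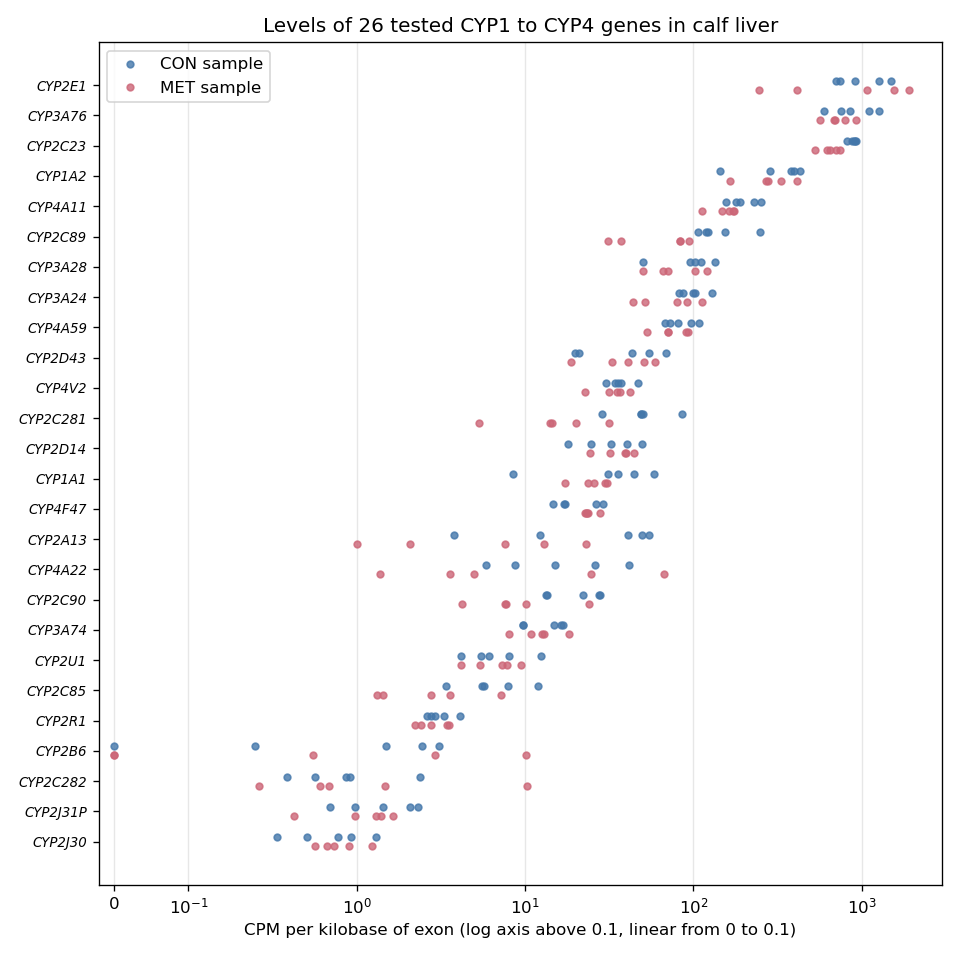
CPM per kilobase of exon (horizontal, log axis above 0.1) of the 26 tested genes in 5 CON and 5 MET samples, 1 point per sample, ordered by mean. CYP2E1, CYP3A76 and CYP2C23 lead, CYP2B6 reaches 0 in 3 samples, and CYP2E1 spans 246 to 1909.6 while CYP2C23 spans 530.2 to 925.

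Over the 12 libraries, 3 of the 26 tested genes were called at FDR ≤ 0.10, all lower in MET. Of all 13212 genes tested, 2.32% were called lower and 4.41% in either direction. The 3 were CYP2C23, CYP2C89 and CYP2C281, all of the CYP2C subfamily, and none of the 26 was called higher (2.09% of all genes). Over the 10 samples the same edgeR test called 0 of the 26 and 0.0% of all genes, whose lowest FDR was 0.156. At an unadjusted p of at most 0.05, 9 of 26 were lower over the 12 libraries (10.4% of all genes) and 7 over the 10 samples (8.52%). None was higher at that p in either fit, against 10.2% and 7.83% of all genes. DESeq2 over the 10 samples called the same 3 genes as the edgeR test over the 12 libraries, where 4.83% of all genes were called. The log2 fold change was below 0 for 20 of 26 genes over the 12 libraries, against 50.4% of all genes, and for 19 over the 10 samples, against 50.5%. Its median was −0.26 over the 12 libraries and −0.17 over the 10 samples, while the median over all tested genes was −0.0031 and −0.0028.

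**Figure D2:**
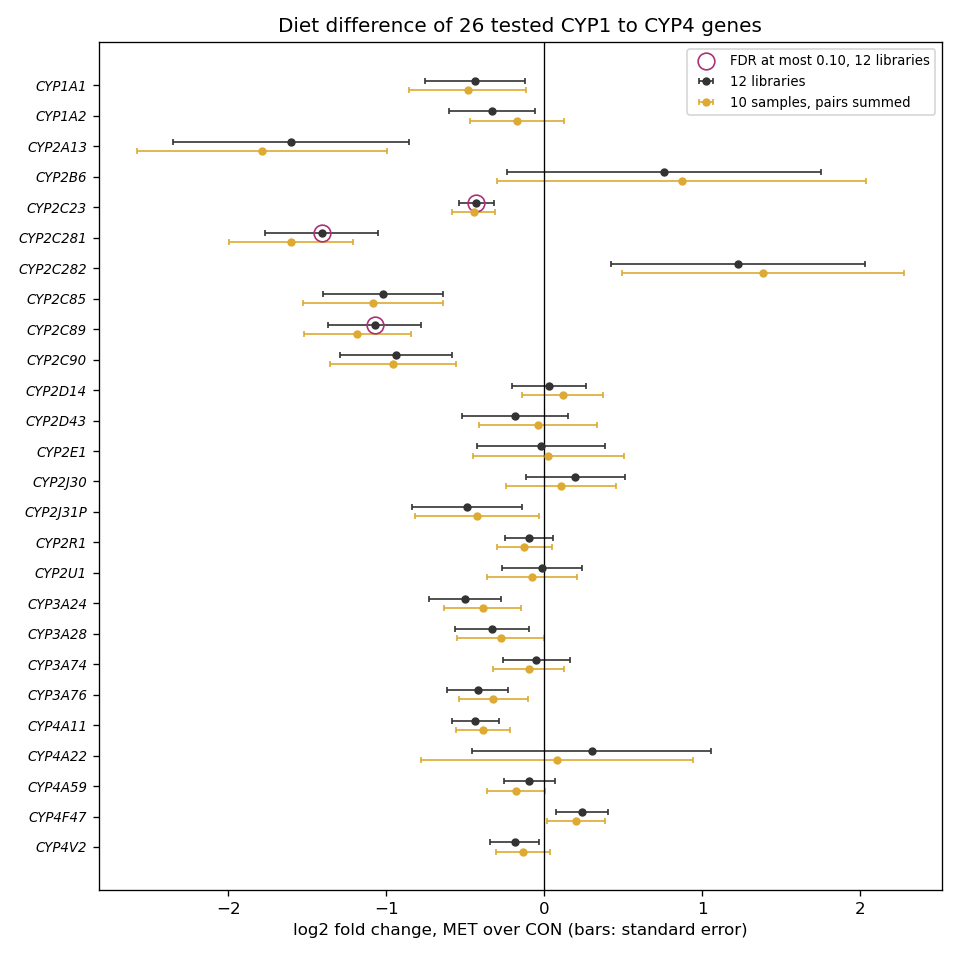
Log2 fold change of MET over CON (horizontal, bars: standard error) for the 26 tested genes from the edgeR fit over 12 libraries (black) and over 10 samples with each pair summed (yellow). Rings mark the 3 genes with FDR ≤ 0.10 over the 12 libraries, CYP2C23, CYP2C281 and CYP2C89, and 20 of the 26 black points lie below 0.

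CYP2C is the largest subfamily of the set, with 8 genes of which 6 were tested, and its human members oxidize drugs and arachidonic acid. In CON, CYP2C genes took 28.2 ± 2.98% of the reads on the whole set, and in MET 23.2 ± 3.84% (SD, n = 5). Of the 6 tested genes, 5 had a log2 fold change below 0 and unadjusted p of at most 0.05 over the 12 libraries, and those 5 held that over the 10 samples. Of all tested genes, 10.4% and 8.52% were lower at that p in these fits.

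CYP2C23 (gene 511498, chromosome 26, 20885731 to 20913649 of UMD 3.1.1, minus strand) had 1839.6, 1789, 1672, 1886 and 1902 CPM in CON samples 1 with 4, 2, 3, 5 and 6. In MET samples 1 with 3, 2, 4, 5 and 6 it had 1452, 1522, 1333, 1089.6 and 1271 CPM. Every MET sample lay below every CON sample, and within CON the samples were close together. The mean was 1818 ± 92.3 CPM in CON and 1333 ± 168 in MET (SD, n = 5). This is a 1.35-fold lower level in MET, with log2 fold change −0.43 (SE 0.11) and edgeR quasi-likelihood FDR of 0.0766 over the 12 libraries, and −0.45 and FDR of 0.185 over the 10 samples. The exact two-sided permutation test over the arrangements of 10 samples gave p = 0.00794, the smallest it can give.

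CYP2C89 (gene 510380, chromosome 26, 16336198 to 16383494, minus strand) had 238, 487, 207, 299 and 232 CPM in the CON samples in the same order. The MET samples had 164, 60.6, 72.9, 184 and 162 CPM. Again no MET sample reached the lowest CON sample, and MET 2 and MET 4 were the lowest of all. The level in MET was 2.11-fold lower, with log2 fold change −1.07 (SE 0.29) and edgeR quasi-likelihood FDR of 0.0845 over the 12 libraries, and −1.18 and FDR of 0.178 over the 10 samples. The exact permutation p over 10 samples was 0.00794. Across all tested genes, the CPM ranges of the diets did not overlap with MET below for 1.77%, and of the 26 P450 genes this held for CYP2C23 and CYP2C89.

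CYP2C281 (gene 785540, chromosome 26, 16411104 to 16462650, minus strand), the neighbor of CYP2C89, had 98.2, 167, 56.3, 95.5 and 95.5 CPM in CON. In MET it had 61.9, 10.4, 39.4, 27.7 and 28.4 CPM. The diets overlapped by 1 sample, since MET 1 with 3 lay above CON 3, and the remaining 4 MET samples were below every CON sample. Its level was 2.65-fold lower in MET, with log2 fold change −1.41 (SE 0.36) and edgeR quasi-likelihood FDR of 0.0734 over the 12 libraries, and −1.60 and FDR of 0.174 over the 10 samples. The exact permutation p was 0.0159. For CYP2C89 and CYP2C281 alike the highest of the 10 samples was CON 2 and the lowest MET 2.

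These calls were close to the threshold and each depended on single libraries. The call of CYP2C23 was lost without any one of CON 1, 4, 5 and 6 and MET 1, 3, 4, 5 and 6 (edgeR FDR of 0.102 to 0.143), that of CYP2C281 without any one of CON 1, 2 and 4 and MET 4, 5 and 6 (0.101 to 0.133), and that of CYP2C89 without any library but MET 5 (0.102 to 0.135). The log2 fold changes over these leave-one-out fits stayed between −0.47 and −0.37 for CYP2C23, −1.61 and −1.21 for CYP2C281, and −1.18 and −0.85 for CYP2C89.

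CYP2C90 and CYP2C85 lay in the same direction without passing FDR ≤ 0.10. CYP2C90 had 24.9, 52.2, 25.1, 51.7 and 41.2 CPM in CON and 14.2, 14.5, 7.93, 19.0 and 45.0 in MET. All MET samples but MET 6 were below every CON sample. Its log2 fold change was −0.94 (SE 0.36, edgeR quasi-likelihood FDR of 0.164) over the 12 libraries and −0.96 (FDR of 0.272) over the 10 samples. Without MET 6 the 12-library fit gave −1.39 with FDR of 0.0606, and the 10-sample fit −1.48 with FDR of 0.254. This was the 1 call of CYP2C90 among the 12 fits that left out a library. Without MET 4 the 12-library fit gave −0.78 with FDR of 0.233. CYP2C85 had 12.4, 25.97, 7.31, 12.1 and 17.2 CPM in CON and 7.76, 3.12, 2.87, 15.5 and 5.97 in MET. MET 5 was the sample within the CON range for this gene, together with MET 1 with 3 just above the lowest CON sample. The log2 fold change of CYP2C85 was −1.02 (SE 0.38, edgeR FDR of 0.157), and −1.08 (FDR of 0.267) with each pair summed. Without MET 5 it was −1.39 (FDR of 0.0929) over the 12 libraries and −1.565 (FDR of 0.253) over the 10 samples. Without CON 2 it was −0.78 (FDR of 0.255) in the 12-library fit. Among the 12 fits that left out a library, 1 called CYP2C85.

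CYP2C282 was the only tested CYP2C gene whose log2 fold change lay above 0 (1.23, SE 0.81, edgeR FDR of 0.408). It is named with its values because its samples were seen to stand apart. The CON samples had 1.28, 3.51, 0.571, 0.832 and 1.35 CPM and the MET samples 0.892, 0.390, 2.18, 1.01 and 15.2 CPM. MET 6 alone was high, the same sample that was high in CYP2C90, and without it the log2 fold change was −0.46.

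Apart from CYP2C23, all CYP2C genes lie in one block of 649 kb on chromosome 26 (15931985 to 16581207 of UMD 3.1.1). In order along the chromosome they are CYP2C90, CYP2C87, CYP2C85, CYP2C88, CYP2C89, CYP2C281 and CYP2C282, and 4 of the 5 tested genes of the block had the negative values above. Tested genes within 200000 bases of either end of the block, named for their position, had log2 fold changes from −0.38 (HELLS) to 0.04 (NOC3L) over the 12 libraries, and none was called by edgeR. TBC1D12 among them had −0.32 at an unadjusted p of 0.0293. Inside the block, the tested genes outside the P450 set were LOC101902226, a long noncoding RNA gene within the span of CYP2C90 on the other strand (−0.48, edgeR FDR of 0.719), and the pseudogene LOC100847963 (−0.56, unadjusted p of 0.0167, FDR of 0.152). CYP2C23 lies outside the block on the same chromosome, as does CYP2E1 (50550569 to 50561265).

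**Figure D3:**
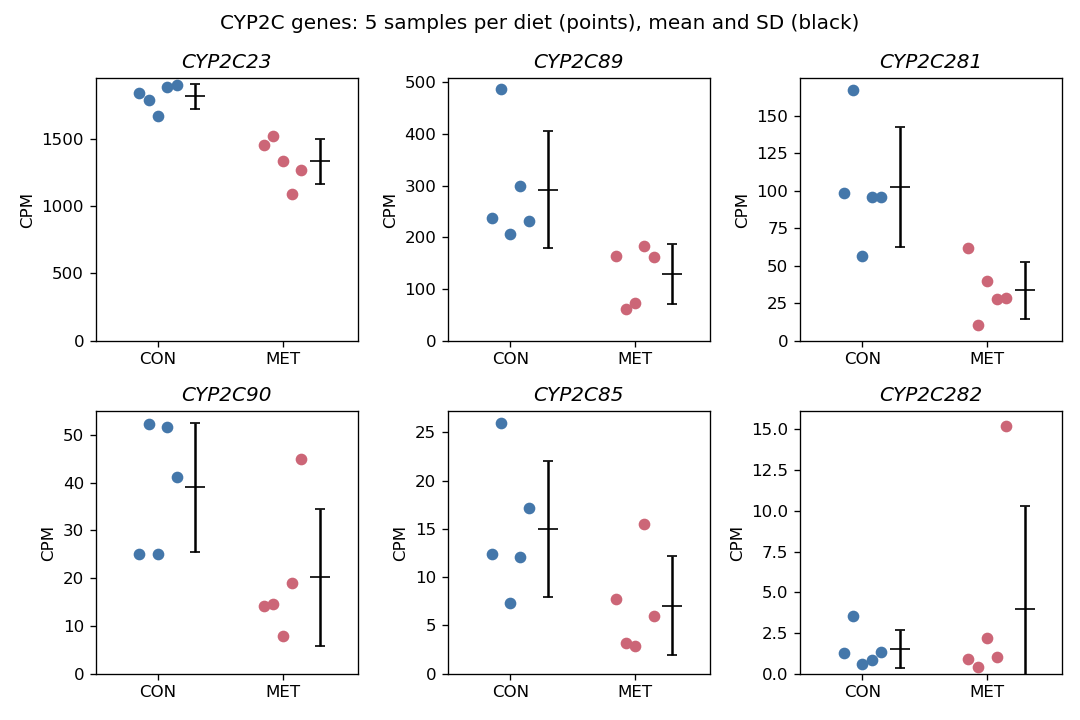
CPM (vertical, from 0, with its own scale in each panel) of the 6 tested CYP2C genes in 5 CON and 5 MET samples, with the mean and SD in black. CYP2C23 and CYP2C89 do not overlap between the diets, CYP2C281 overlaps by 1 sample, and the MET mean of CYP2C282 rests on 1 sample at 15.2 CPM, where the SD bar is cut off at 0.

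CYP2E1 differed little between the diet means and widely between calves. The CON samples had 2410.1, 2851, 1417, 1731 and 1343 CPM and the MET samples 2048, 3647, 469.7, 786 and 2985 CPM. MET held both the highest sample (MET 2) and the lowest (MET 4), 7.76-fold apart. The means were 1950.5 ± 656 CPM in CON and 1987 ± 1369 in MET (SD, n = 5), with a log2 fold change of −0.02 (SE 0.40, edgeR quasi-likelihood FDR of 0.984) in the 12-library fit, and of 0.03 when each pair was summed. As a share of the reads on the P450 set, CYP2E1 ranged from 8.50 to 43.2% between samples.

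CYP2A13, of a subfamily that oxidizes coumarin and nicotine in humans, had the most negative log2 fold change of the set, −1.60 with SE 0.75 over the 12 libraries and −1.79 over the 10 samples. Its CON samples had 6.25, 67.4, 90.4, 20.2 and 81.5 CPM and its MET samples 12.5, 1.66, 3.45, 38.1 and 21.3 CPM. CON samples 2, 3 and 6 were above all MET samples, and the other 2 CON samples lay within the MET range. The edgeR quasi-likelihood FDR was 0.243 (unadjusted p 0.0499) over the 12 libraries and 0.294 (unadjusted p 0.0434) over the 10 samples. The exact permutation p over the 10 samples was 0.119, and CYP2A13 was not called.

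CYP2D43, of the subfamily that oxidizes basic drugs, had 107, 67.4, 30.8, 84.3 and 32.4 CPM in CON and 63.2, 29.0, 51.2, 92.5 and 79.0 in MET. CON 1 with 4 was the highest and MET 2 the lowest, and the other samples overlapped between the diets, with a log2 fold change of −0.18 (SE 0.33, edgeR FDR of 0.798). Its neighbor CYP2D14 gave 0.03 (SE 0.23). Other CYP2 genes with enough reads were the vitamin D hydroxylase CYP2R1 (−0.09, SE 0.15), the fatty acid hydroxylase CYP2U1 (−0.01, SE 0.25), CYP2J30 (0.20, SE 0.31) and the pseudogene CYP2J31P (−0.49, SE 0.35), none of them called (edgeR FDR of 0.449 to 0.984).

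The CYP1A pair is induced through AHR, and its products oxidize aromatic compounds. CYP1A2 had 849.6, 917, 818, 607 and 309 CPM in CON and 351, 576, 881, 596 and 704 in MET. The ranges overlapped, CON 6 being the lowest of all and CON 2 the highest. The log2 fold change was −0.33 (SE 0.27, edgeR quasi-likelihood FDR of 0.523), and −0.17 over the 10 samples. CYP1A1 lay lower, between 22.8 CPM in CON 6 and 156 CPM in CON 5, with a log2 fold change of −0.44 (SE 0.32, FDR of 0.456), and −0.48 over the 10 samples. CON 6 was thus the lowest sample for both CYP1A genes.

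All 4 CYP3A genes had log2 fold changes below 0 and none was called. CYP3A76 had 2178, 1303, 1035, 1480.4 and 1916 CPM in CON and 1200.2, 1179.7, 1607, 979 and 1368 in MET. All MET samples but MET 5 lay within the CON range, and the log2 fold change was −0.42 (SE 0.19, unadjusted p 0.0455, edgeR FDR of 0.233). CYP3A24 had 193, 154, 242, 163 and 187 CPM in CON and 82.6, 213, 97.3, 152 and 173 in MET. MET 1 with 3, MET 4 and, narrowly, MET 5 were below every CON sample, and the log2 fold change was −0.50 (SE 0.23, unadjusted p 0.0474, edgeR FDR of 0.238). Over the 10 samples CYP3A76 gave −0.32 with unadjusted p 0.163 and CYP3A24 gave −0.39 with p 0.135, both by edgeR. CYP3A28, the subfamily member first in line along the chromosome, had 175, 188, 162, 230.5 and 86.0 CPM in CON and 112, 120.3, 85.0, 174 and 204 in MET. Its log2 fold change was −0.33 (SE 0.24, edgeR FDR of 0.452), and that of CYP3A74, at lower levels, was −0.05 (SE 0.21).

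Family CYP4 gave different values for neighboring genes of one subfamily. CYP4A11, a fatty acid hydroxylase whose gene is a target of PPARA, had 521, 367, 323, 473 and 388 CPM in CON and 334, 360.4, 353, 231 and 307 in MET. MET 5 and MET 6 were below every CON sample, and none was above the CON median of 388. The log2 fold change was −0.44 (SE 0.15, unadjusted p 0.0114, edgeR quasi-likelihood FDR of 0.133), and −0.39 with unadjusted p 0.0414 over the 10 samples. CYP4A59 had 149, 139, 166, 199 and 222 CPM in CON and 185, 189.5, 108, 145 and 145 in MET. Its diets overlapped, with a log2 fold change of −0.09 (SE 0.16, edgeR FDR of 0.782). Outside CYP4A the tested members were CYP4F47 (0.24, SE 0.16), of the subfamily that hydroxylates leukotrienes and vitamin K, and CYP4V2 (−0.19, SE 0.15), a fatty acid hydroxylase, neither called. Outside the rule fell 3 genes with LOC symbols and a CYP4F name as a synonym. LOC507615 had 1165 to 2484 reads and a log2 fold change of 0.15 (edgeR FDR of 0.699), LOC507016 had 0 to 3 reads and LOC534967 had 0.

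Variation among calves of the same diet was greater for these genes than for most. The coefficient of variation (CV) of CPM within diet had a median of 0.387 over the 26 genes, against 0.202 over all tested genes. For 24 of the 26 it was above the median of tested genes of like mean level (500 genes, but 299 to 407 for CYP2E1, CYP2C23, CYP3A76 and CYP1A2 at the top of the range), and for 9 above their 95th percentile. The abundant CYP2C23 was the exception, with the lowest CV of the set (0.0961), at the 2.87th percentile of genes of like level. Also below the median of like-level genes was CYP4A11 (0.181 against 0.197).

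CYP2B6 (CV 1.30), CYP2C282 (1.26), CYP4A22 (1.10) and CYP2A13 (0.848) had the highest CV of the set. CYP2B6 and CYP4A22 were picked for this after their values were seen. Of these genes, CYP2B6 had no reads in some samples, while CYP4A22 and CYP2A13 were above the floor of 3 reads in all 12 libraries. CYP2B6, a target of NR1I3 in other species, had 6.16, 7.78, 0, 0.624 and 3.73 CPM in CON and 7.30, 0, 1.38, 25.4 and 0 in MET. Reads thus were absent from CON 3, MET 2 and MET 6 and reached 227 in MET 5. CYP4A22, next to CYP4A59, had 10.5, 15.7, 46.7, 27.0 and 73.8 CPM in CON and 44.2, 120.3, 6.43, 2.46 and 8.85 in MET. MET 2 was the highest and MET 5, the sample with the most CYP2B6, the lowest, 49.0-fold apart. For CYP2A13 the highest and the lowest sample were 54.6-fold apart. Neither CYP2B6 (log2 fold change 0.76, SE 0.99) nor CYP4A22 (0.30, SE 0.76) differed by diet beyond this spread, with edgeR FDR of 0.704 and 0.861.

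**Figure D4:**
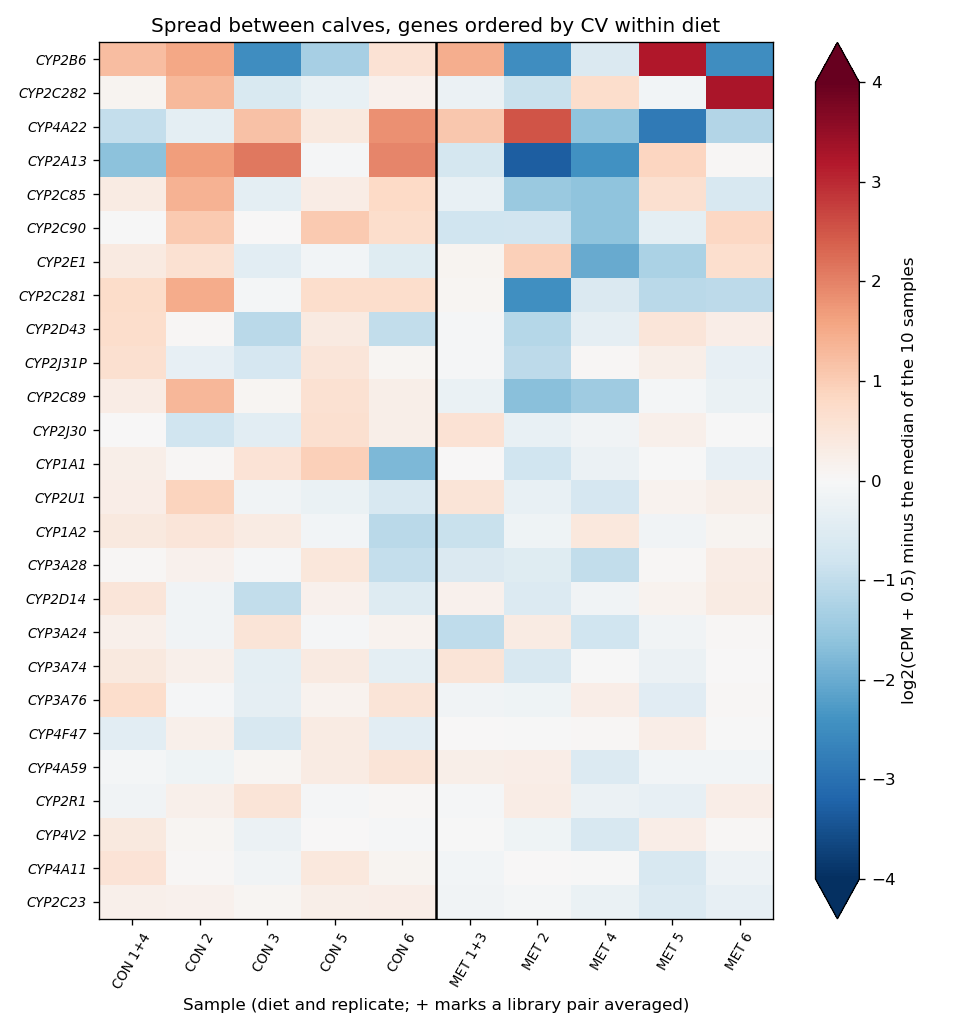
Log2(CPM + 0.5) of the 26 tested genes minus the median of the 10 samples (color, red above and blue below), with samples in columns and genes ordered by CV within diet. The upper rows (CYP2B6, CYP2C282, CYP4A22 and CYP2A13) alternate between red and blue within each diet, while CYP2C23 in the last row is pale red in all 5 CON samples and blue in all 5 MET samples.

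Of 5 pairs of genes examined for joint variation across calves, none passed the test. After the mean of each diet was removed, CYP1A1 and CYP1A2 had r = 0.54 (exact permutation p = 0.203 within diets, n = 10, Spearman rho 0.055 with p = 0.899), and r was −0.31 without CON 6 and CON 5, so the value rests on those samples. The other 4 pairs, CYP2B6 with CYP3A76, CYP4A11 with CYP4A59, CYP1A2 with CYP2E1 and CYP2C23 with CYP2C89, had r of −0.45 to 0.12. Adjusted over the 5 pairs, the lowest p was 0.789.

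Reads on the P450 set as a whole made up 0.909, 0.817, 0.711, 0.823 and 0.756% of the counted reads in the CON samples. The MET samples had 0.701, 0.967, 0.525, 0.456 and 0.801%. MET 2 was the highest and MET 4 and MET 5 the lowest, so that in this share the MET samples surrounded those of CON. With the 10 most counted genes left out of the total, CON 1 with 4 was the highest at 1.232% and MET 2 had 1.218%. The means of that share were 1.077 ± 0.108% in CON and 0.906 ± 0.230% in MET (SD, n = 5). The means were 0.803 ± 0.0751% in CON and 0.690 ± 0.207% in MET (SD, n = 5), a description without a test.

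Genes that supply P450 enzymes with electrons and heme were read from the same edgeR fit, in which 2.32% of all genes were called lower and 2.09% higher. POR, the oxidoreductase that serves all of these enzymes, had 202 ± 26.2 CPM in CON and 176 ± 33.0 in MET (SD, n = 5), with a log2 fold change of −0.17 (SE 0.13, FDR of 0.497). CYB5A, the cytochrome b5 that passes on electrons in some P450 reactions, was the 1 of 6 redox partners called, at 794 ± 160 CPM in CON and 551 ± 53.1 in MET. Its log2 fold change was −0.56 (SE 0.13) (edgeR quasi-likelihood FDR of 0.0692), and the FDR was 0.183 when each pair was summed. Of 9 heme genes 1 was called, FECH, which inserts iron into heme, with a log2 fold change of −0.42 (SE 0.10, FDR of 0.0719, and 0.175 over the 10 samples). ALAS1 had the most negative value of the 9 without being called (−0.78, SE 0.26, FDR of 0.129, and −0.83 with FDR of 0.232 over the 10 samples). Of the 9 heme genes, 4 lay above 0.

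Among 14 tested nuclear receptors and factors, 2 were called lower (2.32% of all genes) and 1 higher (2.09%). PPARA, the fatty acid receptor, had 17.9 ± 1.57 CPM in CON and 13.1 ± 2.00 in MET, with a log2 fold change of −0.42 (SE 0.12, edgeR FDR of 0.0849). NR3C1, the glucocorticoid receptor, had −0.49 (SE 0.10, FDR of 0.0528). NR0B2, a repressor of other nuclear receptors, was the higher one at 15.8 ± 8.04 CPM in CON and 39.1 ± 11.3 in MET, with 1.40 (SE 0.27, FDR of 0.0452). Over the 10 samples the FDR of these 3 was 0.174 to 0.178. The receptors of the CYP1A, CYP2B and CYP3A genes were not called: AHR gave −0.61 (SE 0.30, FDR of 0.264), NR1I3 gave 0.30 (SE 0.21, FDR of 0.432) and NR1I2 gave 0.01 (SE 0.15, FDR of 0.976).

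Of 10 tested genes of other oxidizing and hydrolyzing enzymes (flavin monooxygenases, epoxide hydrolases, an aldehyde oxidase and carboxylesterases), all 10 had log2 fold changes below 0 (50.4% of all genes), with a median of −0.45. Of the 10 genes, 5 were lower with an unadjusted edgeR p of at most 0.05 in the 12-library fit (10.4% of all genes) and 2 when each pair was summed (8.52%). The 1 called (2.32% of all genes were called lower) was AADAC, an esterase of the endoplasmic reticulum, at 99.3 ± 15.8 CPM in CON and 57.9 ± 6.46 in MET, with −0.72 (SE 0.12, edgeR FDR of 0.0398, and 0.156 over the 10 samples). P450 genes of other families, which make bile acids and handle sterols and vitamins, had a median of −0.17 over 9 tested genes with 0 called at FDR ≤ 0.10 (4.41% of all genes), 1 at an unadjusted p of at most 0.05 by edgeR. Pericentral genes, which mark the zone where most P450 enzymes are made, had a median of −0.10 with 0 of 8 called by edgeR (4.41% of all genes) and 1 at an unadjusted p of at most 0.05. Of 8 periportal genes, 1 was called (4.41% of all genes in either direction), the gluconeogenic PCK1 (−0.995, SE 0.21, FDR of 0.0570, and 0.175 over the 10 samples), and their median was −0.27.

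**Figure D5:**
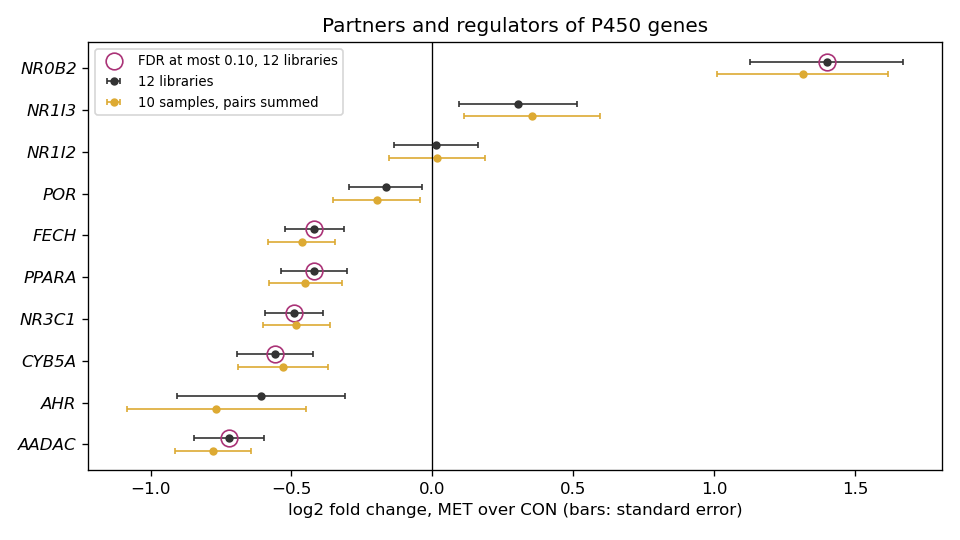
Log2 fold change of MET over CON (horizontal, bars: standard error) for electron and heme suppliers, receptors and AADAC from the edgeR fit over 12 libraries (black) and over 10 samples (yellow), with rings at FDR ≤ 0.10 over the 12 libraries. NR0B2 lies at 1.40 while CYB5A, FECH, PPARA, NR3C1 and AADAC lie between −0.72 and −0.42, and NR1I2 sits at 0.01.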

How the data were processed

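Liver RNA of 12 libraries (6 per diet) was analysed. Per the file headers, the deposited values are raw counts per gene that the authors made with featureCounts 1.5.2 (Subread) on reversely stranded exons of UMD 3.1.1, without reads of multiple positions. Per the labels, reads were trimmed with Trimmomatic 0.33 and aligned with STAR 2.5.3a. Gene symbols came from the RefSeq table of ARS-UCD2.0, by gene identifier (25105 of 30336 matched), and coordinates from the files. Rows of 22 tRNA identifiers held 0.0487 to 0.115% of reads.

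Genes were filtered with filterByExpr (count 10, total 15), scaled by TMM and fitted with edgeR 4.0.16 (R 4.3.3) on diet, following the study's methods. Benjamini-Hochberg FDR ≤ 0.10 over all genes tested was the threshold. The standard error is the log2 fold change divided by the root of F. Counts of CON 1 and 4 and of MET 1 and 3 were summed for the fit over 10 samples, and their CPM averaged for means. In simulated data with 200 genes changed 2-fold, the test recovered 155 over 12 libraries and 122 over 10 samples, with 17 and 18 false calls. The simulated libraries were drawn independently, so the values for 12 libraries do not apply where a pair of libraries is 1 sample. Exact tests used log2 CPM with a prior count of 2. Count floors of 3 reads cover counting error only. DESeq2 1.42.0, other scalings, filters, a length correction and left-out libraries were tried.

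Genes given by sample were the 10 of highest mean CPM per kilobase and those with FDR ≤ 0.10 or unadjusted p ≤ 0.05, or without overlap between the diets. Of the other lists, genes at FDR ≤ 0.10 and POR, AHR, NR1I2, NR1I3 and PPARA were named. ALB and ALAS1 were named as well, after their values were seen. The genes and lists were chosen with earlier results of these data known. No sequence was printed, and protein and promoter sequences were not used here.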

Additional observations from a re-analysis of the deposited data

Results flagged for a closer look

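Among 54 sets of 5 samples (each of the 26 tested genes and the share of reads on the whole P450 set, per diet), 4 held a sample far from the others by Dixon's criterion, where chance alone gives about 1 in 20 sets. CYP2B6 had 25.4 CPM in MET 5, with the other MET samples at 0 to 7.30. CYP2C282 had 15.2 CPM in MET 6, with the others at 0.390 to 2.18, and 3.51 CPM in CON 2, with the others at 0.571 to 1.35. CYP4F47 had 52.8 CPM in MET 5, with the others between 43.3 and 45.0. No explanation was tested.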

How the results depend on the processing

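The count of 3 genes called over the 12 libraries (4.41% of all genes) became 0 over the 10 samples (0.0%) and 0 with scaling by library size only (0.81%). It was 1 without a filter on low counts (1.12%) and 6 by DESeq2 over the 12 libraries (9.95%, CYP2C85, CYP2C90 and CYP4A11 in addition). Over the 10 samples without a filter or with the length trend removed it was 0 (0% of all genes). The count stayed at 3 with DESeq2 size factors (4.56% of all genes), robust estimation (4.51%), a filter of CPM above 1 (4.4%) and DESeq2 over the 10 samples (4.83%). It was 2 over the 12 libraries with the length trend removed (1.89%). Leaving out 1 of 12 libraries gave 0 to 2, with 0 without CON 1 (0.195% of all genes called), CON 4 (0.263%) or MET 4 (2.21%). Leaving out 1 of 10 samples gave 0 to 1, the 1 being CYP2C281 without MET 1 with 3 (0.292% of all genes). Fits without a filter or with the length trend removed over the 10 samples, and those leaving out 1 of 10 samples, were chosen after seeing the data. Replicate numbers did not pair the samples: same-numbered libraries deviated with r of −0.19 to 0.15, and 0 of 6 CON libraries correlated best with its own number. With the replicate number as a block, 0 genes of the set and 6 of all genes (0.0454%) were called. CYP2C23, CYP2C89 and CYP2C281 stayed below 0 in every fit.

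Signs changed for genes that were not called. CYP2E1 was −0.02 over the 12 libraries, 0.026 over the 10 samples, 0.085 by library size only, 0.028 by DESeq2 over the 10 samples and 0.034 without a filter over the 10 samples. With a library left out it ranged from −0.28 to 0.18, and with 1 of 10 samples left out from −0.31 to 0.28. CYP2D43 ranged from −0.34 with 1 library left out to 0.23 with 1 of 10 samples left out. With the replicate block CYP2B6 was −0.12 and CYP4A22 −0.29. With 1 library left out, the ranges were −0.32 to 1.04 for CYP2B6, −0.52 to 0.78 for CYP4A22 and −0.46 to 1.67 for CYP2C282. With 1 of 10 samples left out they were −0.63 to 1.28, −1.11 to 0.56 and −0.44 to 1.90. The correlation of CYP2B6 with CYP3A76 was 0.12 and, by library size only, −0.089, and that of CYP4A11 with CYP4A59 was 0.068 and 0.43. The cause of these differences was not tested. CYP2B6 was at or below the floor of 3 reads in some libraries.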
